A study of Mus musculus with 36 samples.

Results

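The genes of the secreted Wnt antagonists were followed through 3 histone marks: Sfrp1, Sfrp2, Sfrp4, Sfrp5 and Frzb of the secreted frizzled-related family, and Dkk1, Dkk2, Dkk3 and Dkk4 of the Dickkopf family. The members were chosen by gene family name, and all 9 were found among 21938 protein-coding genes on mouse build mm10. For each gene the values were the share of the promoter and of the gene body lying inside islands, the width of the island at the promoter and the read count per kb of island. The promoter was taken as 2 kb up and downstream of the gene's annotated start (TSS). Islands are broad stretches with more reads than expected, called by the authors in every library.

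Wnt ligands bind frizzled receptors and LRP5/6 co-receptors, which keeps beta-catenin from being degraded and turns on target genes. Secreted frizzled-related proteins, with Frzb among them, bind Wnt ligands outside the cell, and Dickkopf proteins DKK1, DKK2 and DKK4 bind the LRP5/6 co-receptors. DKK3 is the divergent member of its family and is not known as a strong LRP5/6 ligand. Wnt signals from the cortical hem are needed for the hippocampus to form. H2AK119ub1 is placed by Polycomb repressive complex 1 (PRC1) and H3K27me3 by PRC2, and both go with silent genes. H3K36me2 goes with open intergenic and genic chromatin, is a substrate of the demethylase in the long form of KDM2B, and hinders PRC2. KDM2B brings a variant PRC1 to unmethylated CpG-rich DNA through its CxxC zinc finger.

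Chromatin was taken from mouse hippocampus at postnatal day 0 (P0) and from neurospheres, floating cultures of progenitors grown from P0 hippocampi. Ctrl samples carried Kdm2bfl/+ or Kdm2bfl/fl, and cKO samples were Kdm2bEmx1-delta-CxxC, in which Emx1-Cre removes the exon for the CxxC zinc finger in dorsal telencephalic progenitors. Each mark, source and genotype had 2 libraries, so 24 of the 36 samples had islands and the 12 inputs were not analysed here. The deletion leaves the rest of KDM2B, and cells outside the Emx1 lineage keep the CxxC domain. The labels do not say that the 2 libraries of a group came from separate animals or cultures, so p-values measure only the spread between these samples, and 2 against 2 libraries cannot give an exact p below 0.333. Hippocampal tissue mixes many cell types, so a share of cells with a mark and its level per cell cannot be told apart.

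Promoter sequence is shown for Sfrp2, Sfrp5 and Dkk2, since CpG is what the CxxC domain binds and these span a wide range of H3K27me3 coverage. Each run is the 250 bases before the RefSeq start, from 5′ to 3′ along the gene, with every CG in capitals. They lie at chr3:83766071-83766320 on the plus strand (Sfrp2), chr19:42202253-42202502 on the minus strand (Sfrp5) and chr3:132085042-132085291 on the plus strand (Dkk2), in GRCm38.p6, the assembly of mm10.
Sfrp2: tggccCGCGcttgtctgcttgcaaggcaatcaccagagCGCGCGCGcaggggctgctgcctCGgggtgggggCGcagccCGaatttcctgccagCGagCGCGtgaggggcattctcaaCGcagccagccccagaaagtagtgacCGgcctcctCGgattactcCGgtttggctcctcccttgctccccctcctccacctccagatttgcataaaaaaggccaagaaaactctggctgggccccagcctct
Sfrp5: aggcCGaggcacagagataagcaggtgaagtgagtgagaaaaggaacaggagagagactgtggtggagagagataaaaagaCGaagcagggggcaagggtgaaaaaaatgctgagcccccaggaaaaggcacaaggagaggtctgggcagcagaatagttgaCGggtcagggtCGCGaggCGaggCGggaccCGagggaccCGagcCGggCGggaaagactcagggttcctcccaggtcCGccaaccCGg
Dkk2: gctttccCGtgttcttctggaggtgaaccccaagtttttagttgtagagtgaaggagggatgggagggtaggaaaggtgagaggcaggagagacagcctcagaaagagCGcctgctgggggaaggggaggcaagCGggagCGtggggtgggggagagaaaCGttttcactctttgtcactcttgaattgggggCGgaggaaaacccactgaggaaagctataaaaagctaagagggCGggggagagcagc
These hold 16, 13 and 7 CG in that order. Frzb has 16 and Dkk1 6 in the same window, against a median of 6 over the 32851 promoters of the RefSeq table. As many as 16 were found in 25.4% of those promoters, as many as 13 in 31.5% and as many as 7 in 46.3%. CG reads the same on both strands. The table matched 5 of the 9 genes, and no sequence is shown for Sfrp1, Sfrp4, Dkk3 and Dkk4.

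Over the wider 1 kb around the TSS, a promoter counted as CpG-rich where GC passed 50% and the CpG ratio, observed over expected, passed 0.6, as it did for 44.4% of promoters. Sfrp1 had a ratio of 1.04, higher than that of 99.1% of promoters. Sfrp2 had 0.788, Sfrp5 0.666 and Frzb 0.605, so Frzb lay just inside the limit. Sfrp4 (0.503), Dkk2 (0.48), Dkk1 (0.446), Dkk3 (0.426) and Dkk4 (0.305) were CpG-poor. No other gene started within any of the 9 promoters, and the nearest start of another gene was 3.18 kb (Epdr1, from Sfrp4) to 521 kb (Papss1, from Dkk2) away.

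Counts in islands and the extent of islands differed between libraries. Counts inside islands ran from 987329 to 6799122 for hippocampal H2AK119ub1, where Ctrl replicate 1 and cKO replicate 1 were lowest, and from 1681001 (Ctrl replicate 2) to 5525016 for hippocampal H3K27me3. In neurospheres H3K27me3 held 13195590 to 17025504. Neurosphere H3K27me3 islands held 60.2 and 52.3 counts per kb in Ctrl, against 43.2 and 42.0 in cKO over all islands. Neurosphere H3K36me2 islands touched 9255 promoters in cKO replicate 1 but 2474 in cKO replicate 2, against 4396 and 4093 in Ctrl. Promoters of Gata4, Gata6, Myod1, Pdx1, Foxa2 and Pax7, regulators of other lineages, were wholly covered by H3K27me3 in all 8 libraries, and those of Sox2 and Vim, active in progenitors, were in none. The Kdm2b promoter had no H3K27me3 island in any library, and island data do not show the deleted exon.

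**Figure D1:**
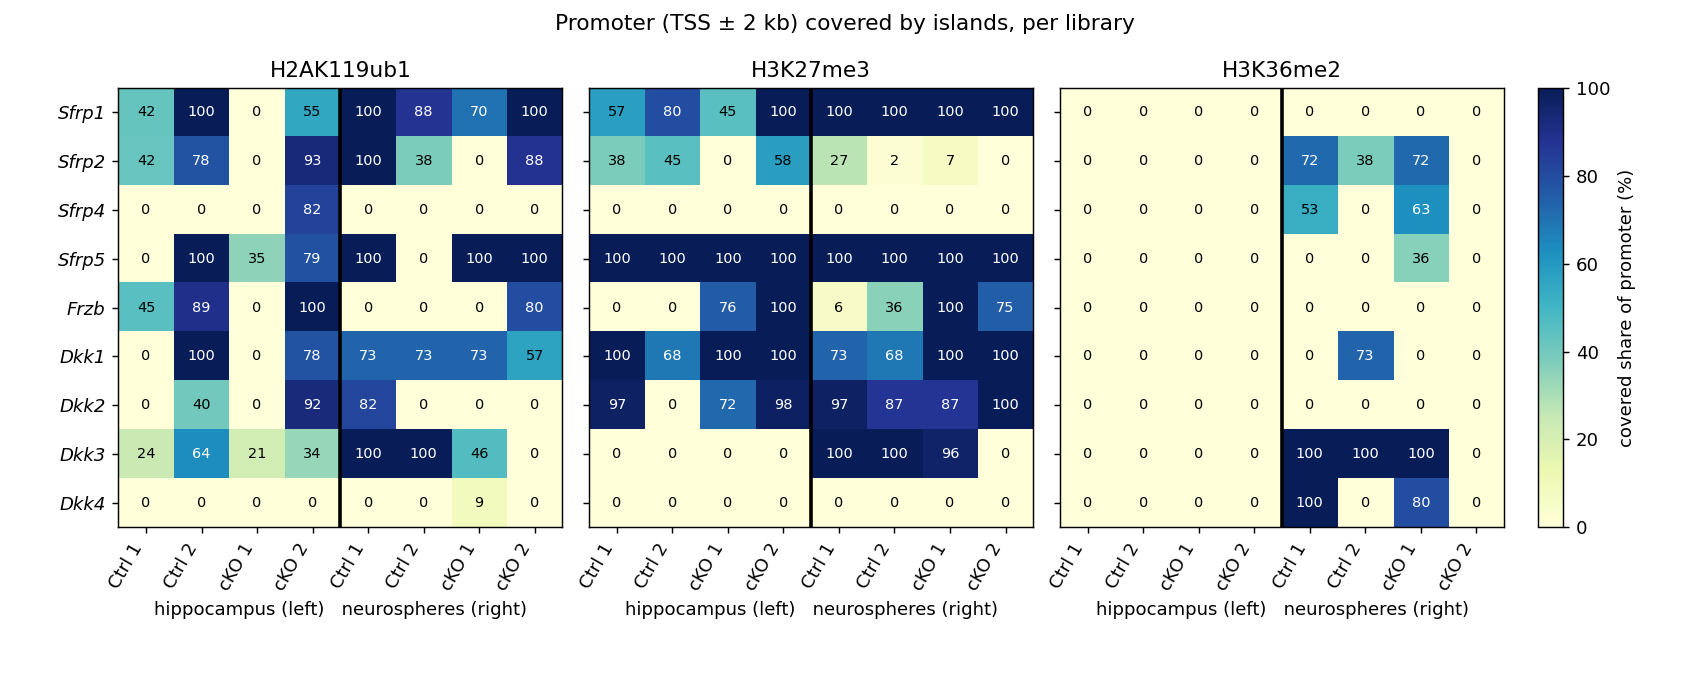
Share of each promoter (TSS ± 2 kb, in percent) inside islands, for 9 genes (rows) and the 8 libraries of each mark (columns; the black line parts hippocampus from neurospheres). Sfrp5 is filled in all 8 H3K27me3 libraries, Sfrp4 and Dkk4 are empty there, and hippocampal H3K36me2 is empty throughout.

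By the islands as called, H3K27me3 was at some antagonist promoters in every library, at others in some libraries and at others in none. Sfrp5 was covered over its whole promoter and its whole gene body in all 8 libraries. Sfrp1 was covered over 57.5% and 80% (Ctrl), against 45% and 100% (cKO) of its promoter in hippocampus, and over 100% in each neurosphere library. Dkk1 had 100% and 68.4% (Ctrl), against 100% and 100% (cKO) in hippocampus. At equal covered length, with the sparsest islands dropped, that difference of 15.8 points became -34.2. Sfrp4 and Dkk4 had no H3K27me3 island at the promoter in any library. An island in all 8 libraries, the state of Sfrp1, Sfrp5 and Dkk1, was found at 6.86% of CpG-rich and 4.88% of CpG-poor promoters, and full coverage in all 8, the state of Sfrp5, at 2.54% and 1.08%.

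Dkk2 was covered over 97.3% and 0% (Ctrl), against 72.3% and 97.7% (cKO) of its promoter in hippocampus. The empty library was Ctrl replicate 2, with the fewest counts in islands. In neurospheres it had 97.3% and 87.3% against 87.3% and 100%, so the genotypes overlapped in both sources. Averaged over 8 libraries, H3K27me3 coverage was highest at Sfrp5 (100%), Dkk1 (88.8%), Sfrp1 (85.3%) and Dkk2 (79.9%), and lower at Frzb (49%), Dkk3 (37.1%) and Sfrp2 (22.1%). The CpG-poor Dkk1 and Dkk2 stood near the CpG-rich Sfrp1. Over all promoters, the mean coverage was highest, at 24.4%, for ratios between 0.4 and 0.5, where Dkk1, Dkk2 and Dkk3 fall.

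**Figure D2:**
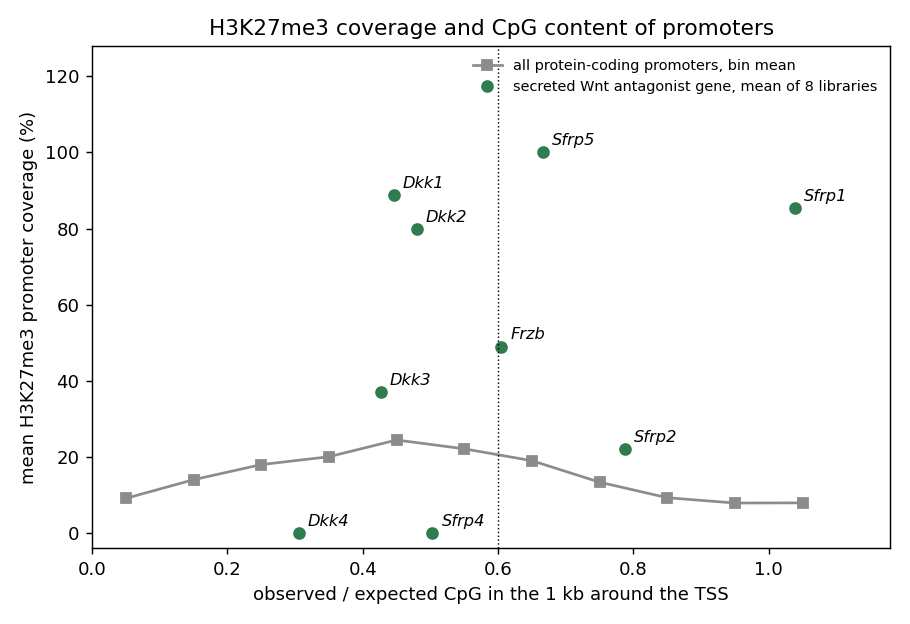
Mean H3K27me3 promoter coverage over 8 libraries (percent) against the observed to expected CpG ratio of the 1 kb around the TSS. Green points are the 9 genes, grey squares the means of all promoters in bins of the ratio holding at least 100 promoters, and the dotted line the limit of 0.6; Sfrp5, Dkk1, Sfrp1 and Dkk2 lie far above their bins, and Sfrp4 and Dkk4 at 0.

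H3K27me3 at Frzb, a Wnt-binding decoy, lay higher in cKO than in Ctrl libraries in both sources. In hippocampus its promoter had no island in either Ctrl library and was covered over 75.6% and 100% in the cKO libraries. In neurospheres it was covered over 5.62% and 35.6% in Ctrl, against 100% and 75% in cKO. Every cKO library lay above both Ctrl libraries of its source. The two-sided exact permutation test stratified by source gave p = 0.0556 (n = 4 and 4), the smallest that 36 splits allow, and 0.689% of the 10307 promoters with an H3K27me3 island reached it in that direction. That p follows from the lack of overlap in both sources and is no separate support.

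The Frzb island also reached further into the gene in cKO neurospheres. H3K27me3 covered 20.8% and 15.7% of the gene body in Ctrl, against 68.6% and 74.7% in cKO, or 18.2% ± 3.57 against 71.6% ± 4.31 (SD, n = 2 and 2). Of all gene bodies with an island, 15.1% lay higher in cKO without overlap in this comparison. In hippocampus the values were 0% and 0% against 2.87% and 5.68%. The widest island at the promoter was 4 and 5 kb in Ctrl neurospheres, centred upstream of the TSS, and 10.4 and 7.4 kb in cKO. The Frzb islands of Ctrl neurospheres were sparse, at 28 and 21.8 counts per kb, denser than 1.48% and 0.525% of the islands of their libraries.

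With every hippocampal H3K27me3 library cut to the same covered length, by dropping its sparsest islands, no Frzb island remained at the promoter and the difference of 87.8 percentage points became 0. Neither Ctrl library had an island there, so leaving out either of them could not change the 87.8 points. Counts in islands were 5117758 and 1681001 in Ctrl, against 5288967 and 5525016 in cKO. Their part in the difference was not tested. In neurospheres the difference was 66.9 points, and 69.7 at equal covered length.

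Dkk1, which encodes an LRP5/6 antagonist, had wider H3K27me3 islands in cKO neurospheres. Its promoter was covered over 73.4% and 68.4% in Ctrl, against 100% and 100% in cKO. The widest island was 3.4 and 3.2 kb in Ctrl, against 8.4 and 16.8 kb in cKO, and the genotypes did not overlap in either measure. Over all promoters, 8.54% had a coverage and 16.3% a width that lay higher in cKO without overlap. In hippocampus the width was 7.4 and 3.8 kb against 14.4 and 7.4 kb, so one Ctrl library equalled one cKO library.

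**Figure D3:**
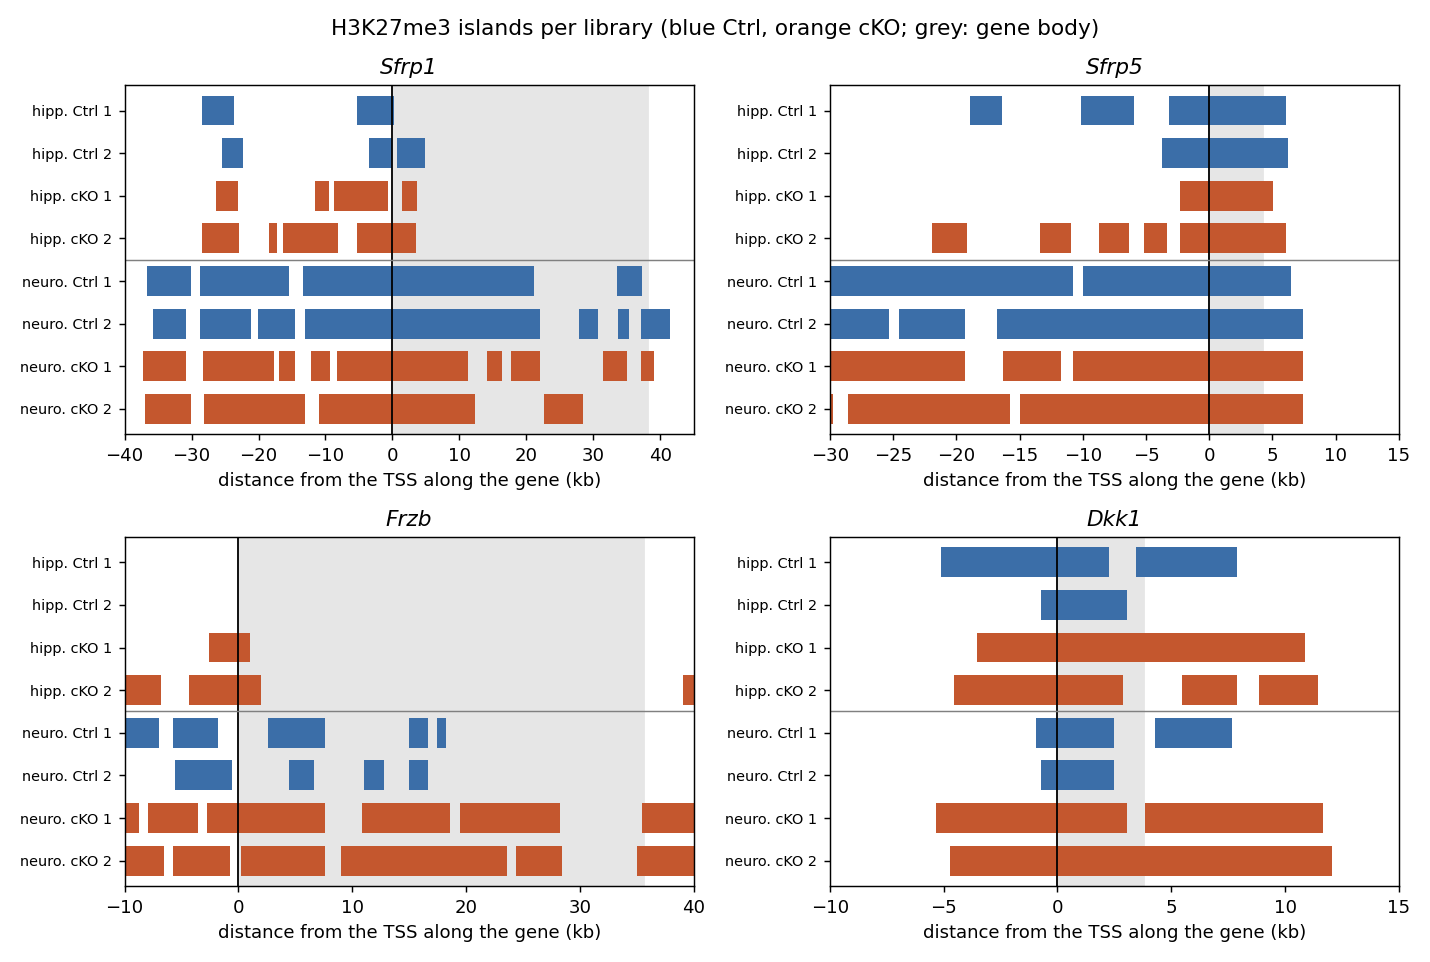
H3K27me3 islands of each library (rows; blue Ctrl, orange cKO) against distance from the TSS along the gene in kb, with the gene body in grey; islands running past an edge are cut there. In neurospheres the Sfrp1 island at the TSS is shorter in cKO, and those of Frzb and Dkk1 are longer.

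Sfrp1, whose product binds Wnt ligands, had narrower islands in cKO neurospheres. Its island at the TSS was 34.4 and 35.2 kb wide in Ctrl, against 19.6 and 23.2 kb in cKO, or 34.8 ± 0.566 against 21.4 ± 2.55 kb (SD, n = 2 and 2). A narrower island without overlap was found at 16.9% of the 8817 promoters of this comparison. In hippocampus it was 5.6 and 4.2 kb in Ctrl, against 8 and 8.8 kb in cKO, wider in both cKO libraries, as 15.8% of promoters were. The neurosphere effect minus the hippocampus effect was -16.9 kb (stratified exact permutation p = 0.0556, the smallest it can give, n = 4 and 4), and 1.6% of the 10307 promoters with an island reached that p in the same direction. That p follows from the lack of overlap, in opposite directions, in both sources. The gene body was covered over 65.3% and 72.2% against 59.1% and 47.5% in neurospheres, again without overlap, while the promoter stayed wholly covered in all 4.

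The island of Sfrp5 was 16.4 and 24.2 kb wide in Ctrl, against 18.2 and 22.4 kb in cKO neurospheres, which overlap. In hippocampus it was 9.2 and 10 kb against 7.4 and 8.4 kb, narrower in both cKO libraries, as 2.97% of promoters were. Sfrp5 islands were among the densest: they held more counts per kb than 89.7% to 99.5% of the islands of their library. Dkk2 had 4.6 and 4.2 kb against 5.2 and 14.8 kb in neurospheres, and its gene body was covered over 8.32% and 7.69% against 13.4% and 50.4%.

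**Figure D4:**
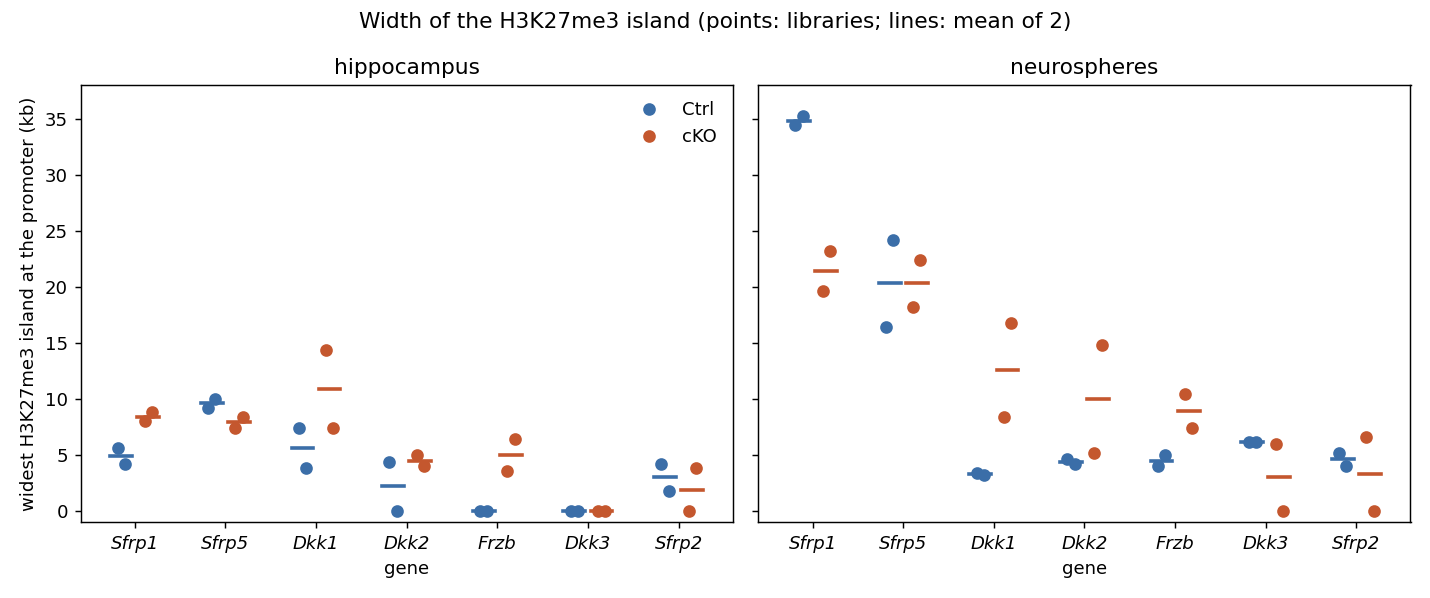
Width of the widest H3K27me3 island touching the promoter (kb; 0 where there is none) for the 7 genes with one in any library; points are libraries and lines the means of 2. In neurospheres Sfrp1 and Dkk3 are narrower in cKO, and Frzb, Dkk1 and Dkk2 are wider, each without overlap. Dkk3 has no island there in cKO replicate 2.

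Counts were then compared over merged regions with an island in all 4 libraries of a comparison. In neurosphere H3K27me3, the Dkk1 region (chr19:30537601-30555000) held 361 and 154 counts in Ctrl, against 791 and 857 in cKO. The log2 fold change was 1.75 (SE 0.36), with an adjusted p of 0.175 by the quasi-likelihood test of edgeR over 11262 regions, so it did not pass an FDR of 0.05. No region passed there (0% called, with 2077 at an unadjusted p under 0.05). The Wald test of DESeq2, an alternative, called 738 regions with Dkk1 among them (adjusted p = 0.00175). The adjusted p of Dkk1 ran from 0.00175 to 0.9997 over the alternatives. Such a fold change joins called length and density, and the Dkk1 islands of cKO neurospheres were wider, while counts per kb overlapped (82.1 and 48.1 in Ctrl, 58.8 and 51.0 in cKO).

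The Frzb region held 461 and 175 counts in Ctrl, against 655 and 820 in cKO neurospheres (log2 fold change 1.29, SE 0.4, edgeR adjusted p = 0.224). The Sfrp1 region held 3415 and 2814 against 2168 and 1902 (-0.61, SE 0.2, adjusted p = 0.235), and the Sfrp5 region 2916 and 2329 against 1752 and 1690 (-0.6, SE 0.18, adjusted p = 0.223). The genotypes did not overlap in any of these, but none passed the test. Without cKO replicate 1, the Sfrp1, Sfrp5 and Dkk1 regions had edgeR adjusted p-values of 0.0242, 0.0267 and 0.0453, and 2409 of all 11262 regions (21.4%) then passed. That fit has 1 cKO library, which is assumed to vary like the Ctrl libraries. Dkk2 had 482 and 358 counts against 364 and 557 (0.14, adjusted p = 0.826). In hippocampus, log2 fold changes were 0.35 for Sfrp1, 0.39 for Dkk1 and -0.21 for Sfrp5 (each with an adjusted p of 0.994; 0% called). In a separate fit, over regions merged across both sources with an island in all 8 libraries, the cKO effect on the Dkk1 region was 1.71 higher in neurospheres than in hippocampus on the log2 scale (SE 0.56, edgeR interaction adjusted p = 0.382).

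Sfrp2, whose product also binds Wnt ligands, had the lowest mean H3K27me3 coverage of the antagonist promoters with an island, 22.1% over 8 libraries. Coverage averaged 35.2% in hippocampus, where library means over all promoters ran from 8.37% to 16.5%. In neurospheres it averaged 9%, against 16.8% to 19.5%. Hippocampal islands lay across or just after the TSS and covered 38% and 45% of the promoter in Ctrl, and 0% and 58% in cKO. In neurospheres the islands stood upstream, with their nearest ends at -0.921 and -1.92 kb from the TSS in Ctrl and at -1.72 and -3.52 kb in cKO. Coverage there was 27% and 2% against 7% and 0%, and the gene body held no H3K27me3 in any neurosphere library. In hippocampus the gene body had 52.5% and 22.5% in Ctrl, and 0% and 43.5% in cKO. The genotypes overlapped in both sources. The upstream region held 406 and 221 counts in Ctrl, against 224 and 138 in cKO neurospheres (log2 fold change -0.73, SE 0.44, edgeR adjusted p = 0.407).

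H2AK119ub1 at Sfrp2 covered 42% and 78% (Ctrl), against 0% and 93% (cKO) of the promoter in hippocampus, and 100% and 38% against 0% and 88% in neurospheres. Each genotype held one low and one high library, and the 0% of hippocampus came from the library with the fewest counts in islands. Over 8 pairs of libraries matched by source, genotype and number, H2AK119ub1 covered more of the Sfrp2 promoter than H3K27me3 in 6, less in 1 (exact sign-flip permutation p = 0.0469, adjusted p = 0.470 over all promoters). H3K36me2 covered none of it in hippocampus and 72% and 38% (Ctrl), against 72% and 0% (cKO) in neurospheres. By the mean absolute difference in promoter coverage over 24 libraries, Fignl2 (10.9 points), Dlgap4 (11.8), Flnc (12), Kirrel (12.5) and Lfng (12.5) were most like Sfrp2.

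Dkk3 carried all 3 marks at its promoter in 3 of the 4 neurosphere libraries. Sfrp2 did so in both Ctrl libraries, Dkk1 in Ctrl replicate 2 and Sfrp5 in cKO replicate 1. In Ctrl replicate 2 the Sfrp2 H3K27me3 island reached only 2% of the promoter and shared 0% of it with either other mark. In hippocampus Dkk3 had no H3K27me3 and no H3K36me2 at its promoter, and 23.6% and 63.6% (Ctrl), against 21.4% and 33.6% (cKO) under H2AK119ub1. In neurospheres, H3K27me3 covered 100%, 100%, 96.4% and 0% of it in Ctrl replicates 1 and 2 and cKO replicates 1 and 2. H3K36me2 covered 100%, 100%, 100% and 0%, and H2AK119ub1 100%, 100%, 46.4% and 0%, in the same order. The 3 marks were thus present in the same libraries and absent from the same library, cKO replicate 2.

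Islands of all 3 marks in the neurosphere libraries Ctrl replicates 1 and 2 and cKO replicate 1 were found at 81 promoters (0.369%), and at 3 of these, Dkk3 among them, no island of any mark was left in cKO replicate 2 (0.0137%). The pattern counted was that of Dkk3 itself, so these shares describe it and are no test of it. In Ctrl replicate 1 the H3K27me3 and H3K36me2 islands over the Dkk3 TSS had the same borders and a width of 6.2 kb. Promoters with both of these marks made up 13.6%, 11.6%, 47.3% and 2.73% of H3K27me3 promoters in the 4 neurosphere libraries, lowest in cKO replicate 2, and 1.74% to 3.57% in hippocampus. The part of these differences between libraries in the Dkk3 pattern was not tested. H2AK119ub1 at Dkk3 lay lower in cKO neurospheres without overlap, as 7.79% of the 10571 promoters did.

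**Figure D5:**
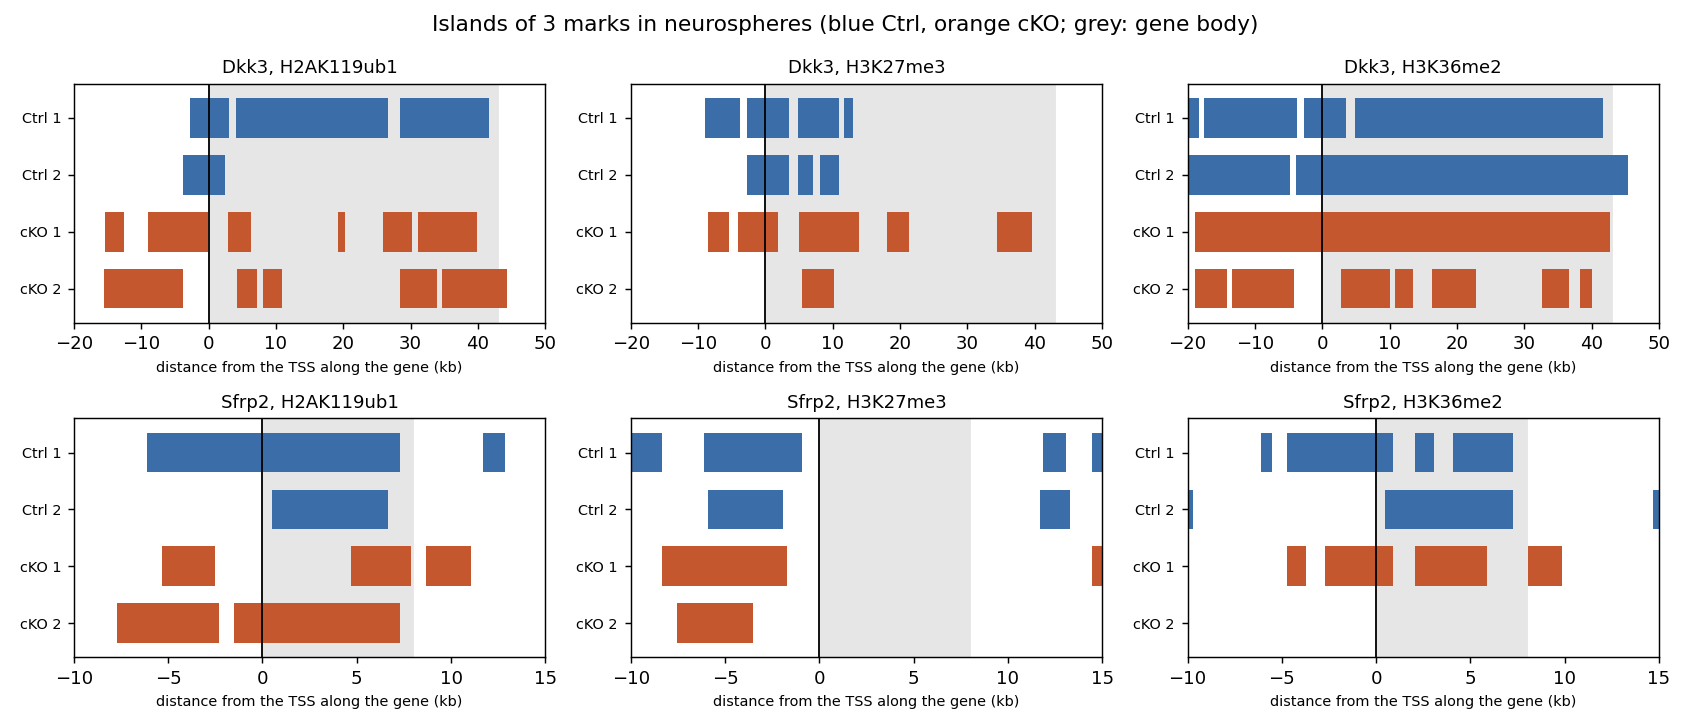
Islands of the 3 marks in the 4 neurosphere libraries (rows; blue Ctrl, orange cKO) against distance from the TSS in kb, for Dkk3 (top) and Sfrp2 (bottom), with the gene body in grey. At Dkk3 all marks lie over the TSS in both Ctrl libraries, the H2AK119ub1 island of cKO replicate 1 ends just before it, and no island lies over the TSS in cKO replicate 2; at Sfrp2 H3K27me3 stays upstream of the gene.

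Across the gene body of Dkk3, H3K36me2 was the leading mark in neurospheres, at 94.9% and 100% in Ctrl, against 99.1% and 52.9% in cKO. In hippocampus it was 0%, 0%, 6.04% and 0%. The merged H3K36me2 region of 85 kb held 4781 and 4088 counts in Ctrl, against 4137 and 1232 in cKO (log2 fold change -0.42, SE 0.62, edgeR adjusted p = 0.962). cKO replicate 2, the low library, held the fewest H3K36me2 counts of the neurospheres. Without it, the log2 fold change was 0.12.

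No antagonist promoter had an H3K36me2 island in hippocampus, where these islands touched at most 7.97% of CpG-poor and 3.94% of CpG-rich promoters. In neurospheres the promoters of Sfrp2, Sfrp4, Sfrp5, Dkk1, Dkk3 and Dkk4 had one in some library, and those of Sfrp1, Frzb and Dkk2 in none. Sfrp4 had 52.6% and 0% (Ctrl), against 62.6% and 0% (cKO), and Dkk4 had 100% and 0% against 80% and 0%. Both genes lacked H3K27me3. None of the 6 differed between genotypes without overlap, while 5.61% of 10783 promoters lay lower and 4.23% higher in cKO. Within gene bodies, Frzb had 24.7% and 16.3% in Ctrl, against 6.17% and 5.05% in cKO neurospheres, and Sfrp2 had 63.5% and 85% against 58.5% and 0%. Both lay lower in cKO without overlap, as 6.51% of gene bodies did, although all gene bodies had a median difference of 4.61 points higher in cKO.

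Frzb thus had more H3K27me3 and less H3K36me2 over its gene body in both cKO than in both Ctrl neurosphere libraries. In hippocampus its H3K36me2 was 0% and 5.05% in Ctrl, against 0% and 22.4% in cKO. At Sfrp1, H3K36me2 lay inside the gene in hippocampus only, over 6.82% and 16.8% in Ctrl, against 28.9% and 29.4% in cKO, away from the promoter. A higher share without overlap was found at 17.4% of the 7084 gene bodies of that comparison. The stratified exact permutation p was 0.333 for this Sfrp1 difference (n = 4 and 4).

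H2AK119ub1 varied within groups. Hippocampal cKO replicate 1 had an island at 2 of the 9 promoters (Sfrp5 and Dkk3), and cKO replicate 2 at 8. Sfrp1 was covered over 42.5% and 100% (Ctrl), against 0% and 55% (cKO) in hippocampus and over 100% and 87.5% against 70% and 100% in neurospheres. Sfrp5 had 0% and 100% against 35% and 78.7% in hippocampus, and 100% and 0% against 100% and 100% in neurospheres. Dkk1 had an island in every neurosphere library, over 73.4% and 73.4% against 73.4% and 56.6%. Frzb had 45% and 89.4% against 0% and 100% in hippocampus. In hippocampus no antagonist lay apart between genotypes, against 1.7% of 6246 promoters lower and 2.03% higher in cKO.

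In neurospheres Frzb had an H2AK119ub1 island in cKO replicate 2 alone (80%). Dkk2 had one in Ctrl replicate 1 alone (82.3%), the H2AK119ub1 library with the most counts in islands. Sfrp4 had one in hippocampal cKO replicate 2 alone (82.4%), and Dkk4 in neurosphere cKO replicate 1 alone (8.95%). The tested H2AK119ub1 regions were those of Sfrp2 and Sfrp5 in hippocampus (log2 fold changes -0.69 and -0.48) and of Sfrp2, Dkk3, Sfrp1 and Dkk1 in neurospheres (0.04, 0.83, -0.82 and -0.37). The edgeR adjusted p-values were 0.999 for the hippocampal and 1.000 for the neurosphere regions, and no region was called (0%), with 30 and 101 at an unadjusted p under 0.05. Without Ctrl replicate 1, the library with the most counts in islands, the Dkk3 region of neurospheres had a log2 fold change of 2.17. That fit has a lone Ctrl library, which is assumed to vary like the cKO libraries. The merged region was 61.6 kb wide and reached past both ends of the gene. cKO replicate 2 held 1206 counts in it but had no island at the promoter, where coverage was lower in cKO.

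Between marks, Sfrp1 and Sfrp5 had more H3K27me3 than H3K36me2 in 8 of 8 library pairs (exact sign-flip permutation p = 0.0078, the smallest possible, adjusted p = 0.11). Dkk1 and Dkk2 did so in 7 pairs (p = 0.0156 by the same exact test, adjusted p = 0.138), and Frzb in 6 with 2 ties (exact p = 0.0312, adjusted p = 0.19). After adjustment 0% of promoters passed, while 14.6% reached an unadjusted p under 0.05 in that direction. Dkk2 had more H3K27me3 than H2AK119ub1 in 7 of 8 pairs (exact sign-flip permutation p = 0.0391, adjusted p = 0.47). That one chromatin preparation was split between the marks is stated for the study, but hippocampal H3K36me2 has inputs of its own.

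Between sources, no antagonist had promoter coverage of any mark in neurospheres wholly apart from that in hippocampus, against 12.4% of promoters higher and 2.66% lower in neurospheres for H3K27me3. Dkk3 H3K27me3 was 0% in all 4 hippocampal libraries against 0% to 100% in neurospheres (stratified exact permutation p = 0.167, n = 4 and 4). Sfrp1 H3K27me3 averaged 70.6% ± 24.4 in hippocampus and 100% ± 0 in neurospheres (SD, n = 4 and 4; stratified exact permutation p = 0.167), and Sfrp2 35.2% ± 24.9 and 9% ± 12.4 (p = 0.167 by the same exact test). The sources also differed in counts inside islands, which cannot be told apart from the source.

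Averaged over the 9 genes, H3K27me3 promoter coverage was 14.6 points higher in cKO than Ctrl in hippocampus and 3.84 points higher in neurospheres. The differences in hippocampus and neurospheres were -3.01 and -7.29 points for H2AK119ub1 and 0 and -10.3 points for H3K36me2. At equal covered length the hippocampal H3K27me3 value was 3.56. The H2AK119ub1 values were then -4.67 in hippocampus and -15.0 in neurospheres, and that of neurosphere H3K36me2 was -17.6. Leaving out single libraries turned the sign in all but the hippocampal H3K27me3 and H3K36me2 means, the latter being 0 throughout. Over all promoters with an island, the median difference was 7.5 points for hippocampal H3K27me3 and 0 for neurosphere H3K27me3, beside 9.79 and 0 for the antagonists with one.

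Other genes of the pathway, in 45 listed genes (18 ligands, 14 receptors and co-receptors, 7 other secreted inhibitors, 6 nuclear effectors and targets), were counted for promoters whose genotypes did not overlap. For neurosphere H3K27me3, 7 of 29 with an island lay lower in cKO (4 ligands and 3 receptors) and 1 ligand higher, beside 13.3% of all promoters lower and 8.54% higher. Of the 7 antagonists with an island, Dkk3 lay lower and Frzb and Dkk1 higher. For hippocampal H3K27me3 the listed genes gave 1 of 35 lower and 1 higher, beside 2.58% and 11.8% of all promoters. For H2AK119ub1 they gave 0 of 40 in hippocampus, beside 1.7% of all promoters lower and 2.03% higher. In neurospheres 4 of 41 lay lower, beside 7.79% of all promoters lower and 4.42% higher. For H3K36me2 they gave 0 of 8 in hippocampus, beside 4.18% lower and 7.55% higher, and in neurospheres 2 of 36 lower and 1 higher, beside 5.61% and 4.23% of all promoters.

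For hippocampal H2AK119ub1 none of 8 did over the gene body (1.57% of all gene bodies lower in cKO, 4.64% higher) or in island width (1.67% and 1.84% of promoters). For neurosphere H2AK119ub1, Frzb alone lay lower over the gene body, at 23.6% and 7.85% in Ctrl against 0% and 4.56% in cKO (7.09% of gene bodies lower, 8.07% higher). No antagonist lay apart there in width (9.2% lower, 4.44% higher), and none had higher promoter coverage (4.42%).

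For hippocampal H3K27me3, Frzb alone lay higher over the gene body (18.9% of gene bodies higher, 2.66% lower). In neurospheres Sfrp1 lay lower over the gene body (13.4%), and Frzb, Dkk1 and Dkk2 lay higher (15.1%). Dkk1 had 64.8% and 64.8% in Ctrl, against 80.6% and 100% in cKO. The Dkk3 island there was 6.2 and 6.2 kb in Ctrl, against 6 and 0 kb in cKO, narrower without overlap as 16.9% of promoters were. For hippocampal H3K36me2 no antagonist promoter could be compared (4.18% of promoters lower and 7.55% higher in coverage, 3.45% and 8.57% in width), and none lay lower over the gene body (7.09%). For neurosphere H3K36me2 the Sfrp2 island was narrower in cKO, at 5.6 and 6.8 kb against 3.6 and 0 kb (8.52% of promoters narrower, 4.24% wider), and no gene body lay higher (6.95%).

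Over both sources, Frzb reached the smallest stratified exact permutation p for H3K27me3 in gene body coverage and in width too, as 3.11% of gene bodies and 2.21% of promoters did in that direction. These measures share islands with its promoter coverage, and the lack of overlap again fixes the p. No antagonist did at the promoter for H2AK119ub1 (0.219% of promoters lower, 0.0438% higher) or for H3K36me2 (0.117% and 0.0718%), nor over the gene body for H2AK119ub1 (0.339% higher). Between sources, the libraries lay apart at 3.33% of promoters higher and 0.0963% lower in neurospheres for H2AK119ub1, and at 6.26% and 0.0718% for H3K36me2, with no antagonist among them at the promoter.

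Gene bodies and island widths did part the sources. H3K27me3 covered 0.784% to 11% of the Sfrp1 gene body in the 4 hippocampal libraries and 47.5% to 72.2% in the 4 neurosphere libraries, 0% to 5.68% against 15.7% to 74.7% of Frzb, and 0% against 11.2% to 44.3% of Dkk3. Each had the smallest stratified exact permutation p (0.0556, n = 4 and 4), which the lack of overlap fixes, and 21.7% of gene bodies lay apart in that direction. The Sfrp1 island was 4.2 to 8.8 kb wide in hippocampus and 19.6 to 35.2 kb in neurospheres, and the Sfrp5 island 7.4 to 10 kb and 16.4 to 24.2 kb, and 17.7% of promoters had wider islands in every neurosphere library. H3K36me2 over the Dkk3 gene body was 0% to 6.04% in hippocampus and 52.9% to 100% in neurospheres (24.3% of gene bodies higher in neurospheres). Over Sfrp1 it was 6.82% to 29.4% in hippocampus and 0% in every neurosphere library (0.789% of gene bodies lower). Neurosphere libraries held more counts in islands for H3K27me3 and H3K36me2 than any hippocampal library, and the part of this in these differences was not tested.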

How the data were processed

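ChIP-seq of 3 histone marks was analysed in 24 libraries from P0 hippocampus and neurospheres, 2 per mark, source and genotype. Per the methods and labels, the authors trimmed reads with cutadapt, aligned them to mm10 with Bowtie2 2.4.5, removed duplicates and called islands per library against input with SICER (version not given in the sources used here). The deposited values are raw read counts per island, not normalised; outside islands the count is unknown, so their sum is not the depth. Sequencing depth was therefore not measured here.

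Covered shares, widths and counts per kb were computed with Python 3.11.15 (numpy 2.4.6, pandas 2.3.3) for GENCODE protein-coding genes, and 9 islands off the autosomes, X and Y were left out. Merged regions with an island in all 4 libraries of a comparison were tested with edgeR 4.0.16 (quasi-likelihood, TMM, Benjamini-Hochberg, FDR 0.05) in R 4.3.3, and with DESeq2 1.42.0 as an alternative. Single values used 2-sided exact permutation tests written with numpy, and scipy 1.17.1 served to check the test of 2 against 2 libraries. The scripts were tested on simulated data. All 9 genes were named in every comparison. The members and lists were chosen with earlier results of these data known. Alternatives were other promoter lengths, island widths, equal covered length, filters, normalisation, a replicate block and leaving out each library.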

Additional observations from a re-analysis of the deposited data

Results flagged for a closer look

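The width of the Sfrp1 H3K27me3 island differed between genotypes in opposite directions in the 2 sources. In hippocampus it was 3.5 kb wider in cKO and in neurospheres the difference was -13.4 kb, so the neurosphere effect minus the hippocampus effect was -16.9 kb. The result was flagged because cKO lay wholly apart from Ctrl in opposite directions in the 2 sources. Such separation fixes the exact permutation test stratified by source at p = 0.0556 (n = 4 and 4), the smallest it can give. The p is thus no separate support for the difference. It was reached in that direction by 1.6% of the 10307 promoters with an island. Counts over the Sfrp1 region merged across both sources gave an edgeR interaction of -0.47 on the log2 scale (SE 0.48, adjusted p = 0.749), which ran from -0.96 to -0.096 when single libraries were left out, lowest without hippocampal Ctrl replicate 2 and highest without hippocampal Ctrl replicate 1.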

How the results depend on the processing

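Of 1101 values under alternatives, 1038 kept their direction and side of the threshold or moved by less than the spread. Another 43 moved further, 15 were counted as reversed and 5 single-gene values passed a threshold they had missed. A reversal was counted only for log2 fold changes and for gene values whose genotypes did not overlap. Other changes of sign, those of the mean coverages included, stand among the 1038 and the 43. Leaving out a library cannot move a cKO minus Ctrl difference in coverage or width by more than the pooled SD of its groups. With that SD as the spread, such values were largely bound to fall among the 1038. For them the 1038 is therefore no measure of stability. With single libraries left out, the hippocampal H2AK119ub1 mean, cKO minus Ctrl, ran from -34.0 to 27.9 points. At equal covered length the mean promoter coverage of the 9 genes, cKO minus Ctrl, was 3.56 points for hippocampal H3K27me3 (14.6 as reported), and neurosphere minus hippocampus was 2.20 points for H3K27me3, 11.6 for H3K36me2 and -2.88 for H2AK119ub1 (11.9, 24.6 and 5.12 before). H3K27me3 minus H2AK119ub1 was 18.5 points (10.1 before). The DESeq2 Wald test called 3 regions for hippocampal H3K27me3, 20 for hippocampal H3K36me2, 32 for neurosphere H2AK119ub1, 738 for neurosphere H3K27me3 and 83 for neurosphere H3K36me2, where edgeR called 0.

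Leaving out single libraries, edgeR called 0 to 23 regions for hippocampal H3K27me3, 0 to 671 for neurosphere H2AK119ub1 (highest without Ctrl replicate 1), 0 to 2409 for neurosphere H3K27me3 and 0 to 2039 for neurosphere H3K36me2 (both highest without cKO replicate 1), and 0 to 121 for the H3K36me2 interaction. Over the 9 genes in 6 comparisons, values that did not overlap between genotypes numbered 10 to 18 for promoter coverage (5 with all libraries). For gene body coverage they numbered 16 to 22 (9 with all libraries). With a library left out, a lone library stands against a pair, and values lie apart more readily than with all libraries. The share of all promoters and gene bodies was not computed for that setting. Log2 fold changes that changed sign ran from -1.36 to 0.41 for Sfrp2 (H2AK119ub1) and, for H3K27me3, from -0.081 to 0.96 for Sfrp1 and -0.69 to 0.34 for Sfrp5 in hippocampus. In neurospheres they ran from -0.29 to 0.32 for Sfrp2 and -1.34 to 0.23 for Dkk1 (H2AK119ub1), -0.085 to 0.37 for Dkk2 (H3K27me3) and -1.26 to 0.12 for Dkk3 (H3K36me2). The interactions ran from -0.53 to 1.46 for Sfrp2 and -0.23 to 1.58 for Dkk3 (H2AK119ub1) and -0.36 to 0.61 for Sfrp5 (H3K27me3). The cause was not tested.

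With the replicate block, 9 regions were called for hippocampal H3K27me3 and 0 in the other comparisons. Same-numbered libraries share only a number in the labels, and the correlation of their deviations ran from -0.32 to 0.33.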
